A study of Mus musculus with 32 samples.

Results

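The Smad feedback inhibitors are genes whose products restrain signaling by activins and TGF-β. Here they are the 8 genes Smad7, Smurf1, Smurf2, Skil, Ski, Tgif1, Pmepa1 and Bambi, chosen by symbol through the Ensembl identifier of each row, and all 8 were among the 12451 genes of the count table. They were measured in YUMM3.3 cells, a mouse melanoma line, by BRB-seq, a method that barcodes bulk RNA at its 3′ end and sequences many samples as 1 library. Cells were left untreated, or received Activin-A at 40 ng/ml, IFN-γ at 20 ng/ml or both factors for a period of 4 hrs or 12 hrs, with 4 wells in each of the 8 groups and 32 samples in all. The Activin-A dose is that of the labels and of the methods for this experiment, while figure legends of the study give a higher one. All groups were cells of the same line, so that the wells are replicate cultures and not separate tumors or animals, and the p-values measure the spread between wells.

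Activin-A binds type II and type I serine/threonine kinase receptors, which phosphorylate Smad2 and Smad3. These join Smad4, enter the nucleus and switch on target genes, some of which encode proteins that act back on the pathway. Smad7 is an inhibitory Smad that occupies the type I receptor and brings in the ubiquitin ligases Smurf1 and Smurf2. Ski and Skil (SnoN) are corepressors that bind Smads on DNA, and Tgif1 is a homeodomain corepressor of Smad2. Pmepa1 (TMEPAI) is a membrane protein that keeps Smad2 and Smad3 from the receptor, and Bambi is a pseudoreceptor that resembles a type I receptor without its kinase domain.

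The libraries held between 654539 and 1455074 counts, so that 3 counts corresponded to between 2.06 and 4.58 CPM (counts scaled to a common library size). Replicate 1 of Activin-A at 4 hrs was the deepest library and stood apart in its 7 mitochondrial genes, which took 2.14% of its counts against 1.08% to 1.54% in the other 31 libraries. The effect of this library on the calls of members for Activin-A alone at 4 hrs is given with the results. It is not given for other genes. All 7 markers of the melanocyte lineage were present, among them Dct at 54.9 to 88.4 CPM and Pmel at 102 to 145 CPM. Others of this lineage were low, with Mitf at 2 to 13, Tyr at 6 to 21 and Sox10 at 8 to 30 counts a library. All 4 markers of mesenchymal-like tumor cells were present, with Vim at a median of 15978 CPM. Of 5 leukocyte markers 3 were in the table, and none of the 3 endothelial markers was. The highest leukocyte count in any library was 17, for Lyz2, which is in the range of the low melanocyte markers. Of 3 keratinocyte markers only Krt10 was present, with at most 15 counts.

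Promoter sequences from RefSeq's annotation of GRCm38.p6 were examined for 4 of the members, Ski, Smurf1, Smurf2 and Tgif1. Those of Smad7, Skil, Pmepa1 and Bambi were not examined. Sequences are shown for Ski, which rose with Activin-A at 4 hrs, beside those of Smurf1 and Smurf2, which were not called for Activin-A at either time. Each runs from base 250 to base 61 before the annotated start, which leaves out exons that other transcripts place nearer the start, and is written 5′ to 3′ on the strand of the gene. Capitals mark CAGAC or its reverse complement GTCTG, the core of the DNA element that Smad3 and Smad4 are known to bind.
Ski, chr4:155222596-155222785, minus strand: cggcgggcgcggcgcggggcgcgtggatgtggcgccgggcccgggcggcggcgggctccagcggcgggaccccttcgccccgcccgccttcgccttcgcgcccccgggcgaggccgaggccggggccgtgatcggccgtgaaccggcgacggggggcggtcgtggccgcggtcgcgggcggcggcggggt
Smurf1, chr5:144965891-144966080, minus strand: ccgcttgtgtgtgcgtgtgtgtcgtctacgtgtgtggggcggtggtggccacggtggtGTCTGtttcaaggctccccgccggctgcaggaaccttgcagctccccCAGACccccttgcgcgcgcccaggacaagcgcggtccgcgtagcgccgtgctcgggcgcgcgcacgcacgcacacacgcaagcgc
Smurf2, chr11:106920776-106920965, minus strand: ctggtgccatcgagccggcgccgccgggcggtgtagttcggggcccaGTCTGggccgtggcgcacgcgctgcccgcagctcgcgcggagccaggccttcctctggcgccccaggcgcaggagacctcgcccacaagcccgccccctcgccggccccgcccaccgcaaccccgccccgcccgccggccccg
The Ski window held no such match on either strand, the Smurf1 window held 2 and the Smurf2 window held 1. A GC-rich motif that Smad3 and Smad4 are also known to bind, GGCGC or its reverse complement GCGCC, was found 6 times in the Ski window, 3 times in that of Smurf1 and 6 times in that of Smurf2, and in 24.3% of all windows. It is not marked by capitals. Of the 5 annotated Tgif1 starts, 2 had a CAGAC match in the same window. A CAGAC match on either strand was found in 34.6% of the 32851 windows of this length in the table, so that these counts describe the letters and not the use of a site.

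The first comparison asks which of the 8 genes respond to Activin-A alone at 4 hrs. Smad7, Skil, Ski, Pmepa1 and Tgif1 rose, whereas Smurf1, Smurf2 and Bambi were not called. Thus 5 of the 8 members were called higher by edgeR's quasi-likelihood test at an adjusted p under 0.05, where 1.05% of the 9137 genes tested were called higher, and no member was called lower. The median log2 fold change (log2FC) of the members was 0.37, and that of all genes tested was -0.0017. In the other comparisons the median of all genes tested lay between -0.012 and 0.0063. Without replicate 1 of Activin-A, 4 members were called, since Tgif1 was lost. Levels are CPM after TMM scaling over all 32 samples, and errors of levels are SD with n = 4.

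**Figure D1:**
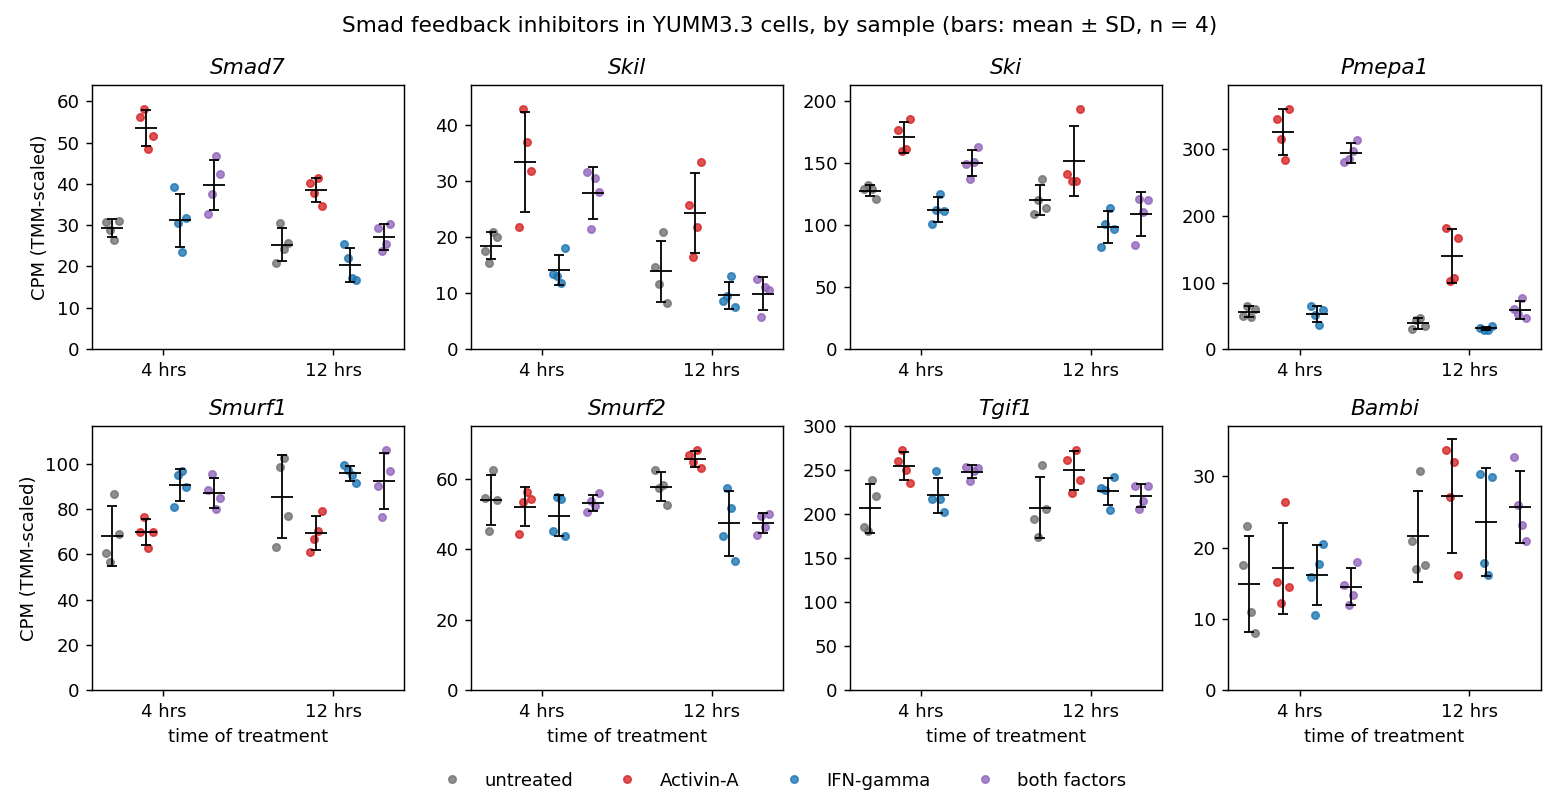
Levels of the 8 Smad feedback inhibitors in each of the 32 samples, in CPM on a linear axis from 0, by treatment (color) and time (horizontal axis). Points are wells and bars are mean ± SD of 4 wells. The Pmepa1 wells with Activin-A at 4 hrs lie between 284 and 361 CPM, above the untreated wells, which lie between 48.3 and 65.4 CPM.

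Pmepa1 (ENSMUSG00000038400) had the largest response among the 8. At 4 hrs the untreated wells were at 49.2, 65.4, 48.3 and 60.9 CPM, and those with Activin-A at 346, 315, 284 and 361 CPM. The groups were thus far apart, with means of 56.0 ± 8.53 and 327 ± 34.3 CPM. The log2FC was 2.55 ± 0.11 (SE), a 5.86-fold rise, with an adjusted p of 2.15e-26. The call held in all 8 refits that left out 1 well.

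Smad7 (ENSMUSG00000025880) was at 30.8, 28.9, 26.3 and 31.0 CPM in untreated wells and at 56.1, 58.2, 48.5 and 51.7 CPM with Activin-A at 4 hrs. Every treated well was above every untreated well. The rise was 1.82-fold, with a log2FC of 0.86 ± 0.16 (SE) and an adjusted p of 0.000458, and it was called in all 8 refits without 1 well.

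The corepressor Ski (ENSMUSG00000029050) was at 129, 132, 128 and 121 CPM without treatment and at 176, 159, 161 and 185 CPM with Activin-A at 4 hrs. The groups did not overlap, and the 1.35-fold rise (log2FC 0.43 ± 0.09 SE, adjusted p = 0.00352) was called in all 8 refits. Its relative Skil (ENSMUSG00000027660) was at 17.6, 15.4, 20.9 and 20.0 CPM against 21.8, 42.9, 37.0 and 31.7 CPM. The groups were again apart, although replicate 1 of Activin-A lay close to the highest untreated well. The log2FC of Skil was 0.79 ± 0.22 (SE) with an adjusted p of 0.0411, from no more than 42 counts in a well. This call stood in 1 of 8 refits, the one without replicate 1 of Activin-A, where the log2FC was 0.98 and the adjusted p 0.00398. It was lost without any of the untreated replicates 1 to 4 or Activin-A replicates 2, 3 and 4, with adjusted p of up to 0.145, and DESeq2's Wald test gave 0.153.

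Tgif1 (ENSMUSG00000047407) was at 185, 181, 239 and 221 CPM without treatment and at 261, 272, 250 and 236 CPM with Activin-A at 4 hrs. Of the treated wells, 3 were above all untreated wells and 1 was within their range. The log2FC was 0.31 ± 0.09 (SE), with an adjusted p of 0.0465, the closest to the threshold of the 5 calls. It was lost without untreated replicate 1 or 2 or Activin-A replicate 1, 2 or 3, with adjusted p between 0.0656 and 0.231. Treating the replicate number as a block gave 0.0629, and DESeq2's Wald test gave 0.144.

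The ubiquitin ligases stayed close to the untreated level at 4 hrs. Smurf1 (ENSMUSG00000038780) was at 68.3 ± 13.3 CPM in untreated wells and 69.7 ± 5.70 CPM with Activin-A, and its log2FC had a 95% interval from -0.23 to 0.29. Smurf2 (ENSMUSG00000018363) was at 54.1 ± 7.09 and 52.1 ± 5.42 CPM, with an interval from -0.34 to 0.22. Both intervals lie below the log2FC of Smad7. Bambi (ENSMUSG00000024232) was at 14.9 ± 6.77 and 17.1 ± 6.36 CPM, with between 8 and 30 counts a well. Its log2FC was 0.21 ± 0.28 (SE), with an interval from -0.35 to 0.77.

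At 12 hrs of Activin-A alone, Pmepa1 and Tgif1 rose. These are 2 of 8 members, where 1.25% of the 8971 genes tested were called higher, and none was called lower. The median log2FC of the members was 0.35. Pmepa1 was at 30.2, 43.0, 47.3 and 33.9 CPM in untreated wells and at 182, 103, 107 and 167 CPM with Activin-A. The treated wells fell into a higher and a lower pair, and all were above the untreated wells. The log2FC was 1.87 ± 0.15 (SE), a 3.66-fold rise, with an adjusted p of 3.76e-19. Tgif1 rose from 207 ± 34.6 to 250 ± 21.9 CPM with a log2FC of 0.28 ± 0.08 (SE) and an adjusted p of 0.0414. Only 2 of its treated wells were above all untreated wells, and the call was lost without untreated replicate 1, 2 or 4 or Activin-A replicate 1 or 3, with adjusted p between 0.0818 and 0.302. DESeq2's Wald test gave 0.192.

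Smad7, Skil and Ski had positive log2FC at 12 hrs that missed the threshold. Smad7 was at 20.9, 30.5, 24.2 and 25.7 CPM in untreated wells and at 40.2, 37.7, 41.4 and 34.7 CPM with Activin-A. The groups did not overlap, and the log2FC was 0.61 ± 0.19 (SE) with an adjusted p of 0.0547. Without untreated replicate 2 the adjusted p was 0.0342. Skil had a log2FC of 0.78 ± 0.26 (SE), near its value at 4 hrs, and an adjusted p of 0.0988. It was called without untreated replicate 3 or Activin-A replicate 2, with adjusted p of 0.0400 and 0.0459. Ski had a log2FC of 0.32 ± 0.10 (SE) and an adjusted p of 0.0829.

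Smurf1, Smurf2 and Bambi were not called for Activin-A at 12 hrs. Smurf1 went from 85.4 ± 18.4 to 69.4 ± 7.65 CPM, a log2FC of -0.30 ± 0.13 (SE) with an adjusted p of 0.291. The Smurf2 wells were at 62.6, 57.4, 58.3 and 52.6 CPM without treatment and at 66.7, 64.8, 68.3 and 63.2 CPM with Activin-A. These groups did not overlap, but the log2FC was 0.18 with an interval from -0.09 to 0.45. Bambi had a log2FC of 0.39 with an interval from -0.06 to 0.83.

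The comparison of both factors with IFN-γ alone gives the response to Activin-A when IFN-γ is also present. IFN-γ is a cytokine that signals through JAK kinases. All 16 genes of a list of IFN-γ response genes, which holds Irf1 and Gbp2, were called higher with IFN-γ alone at each time. Over all genes 392 of 9137 were called higher with IFN-γ alone at 4 hrs and 577 of 8971 at 12 hrs. At 4 hrs, Pmepa1, Skil and Ski rose with Activin-A in cells that also received IFN-γ. These are 3 of 8 members, where 0.558% of genes were called higher, and none was called lower. The median log2FC of the members was 0.25.

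Pmepa1 was at 64.9, 51.4, 36.7 and 58.3 CPM with IFN-γ and at 281, 285, 298 and 315 CPM with both factors at 4 hrs. The log2FC of 2.45 ± 0.11 (SE), with an adjusted p of 1.07e-24, lay close to that without IFN-γ. Skil was at 13.5, 13.1, 11.8 and 17.997 CPM against 31.6, 21.4, 30.5 and 28.0 CPM, so that the groups did not overlap. Its log2FC was 0.93 ± 0.24 (SE) with an adjusted p of 0.0407. The call was lost without IFN-γ replicate 1, 2 or 3 or replicate 1, 3 or 4 of both factors, with adjusted p between 0.0992 and 0.155, and with DESeq2's Wald test (0.127).

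Ski was at 100, 112, 125 and 111 CPM with IFN-γ and at 149, 137, 150 and 162 CPM with both factors at 4 hrs. Its log2FC of 0.42 ± 0.10 (SE), with an adjusted p of 0.0172, was near the value without IFN-γ. The call was lost without IFN-γ replicate 1 or 2 or replicate 4 of both factors, with adjusted p of 0.0835, 0.0766 and 0.116, and with DESeq2's Wald test (0.0628). Smad7 went from 31.2 ± 6.42 to 39.8 ± 6.04 CPM, a log2FC of 0.34 ± 0.17 (SE) with an adjusted p of 0.546 and wells that overlapped. Tgif1 went from 221 ± 19.5 to 248 ± 7.53 CPM, a log2FC of 0.16 ± 0.09 (SE) with an adjusted p of 0.590. Smurf1, Smurf2 and Bambi had log2FC of -0.06, 0.11 and -0.15.

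**Figure D2:**
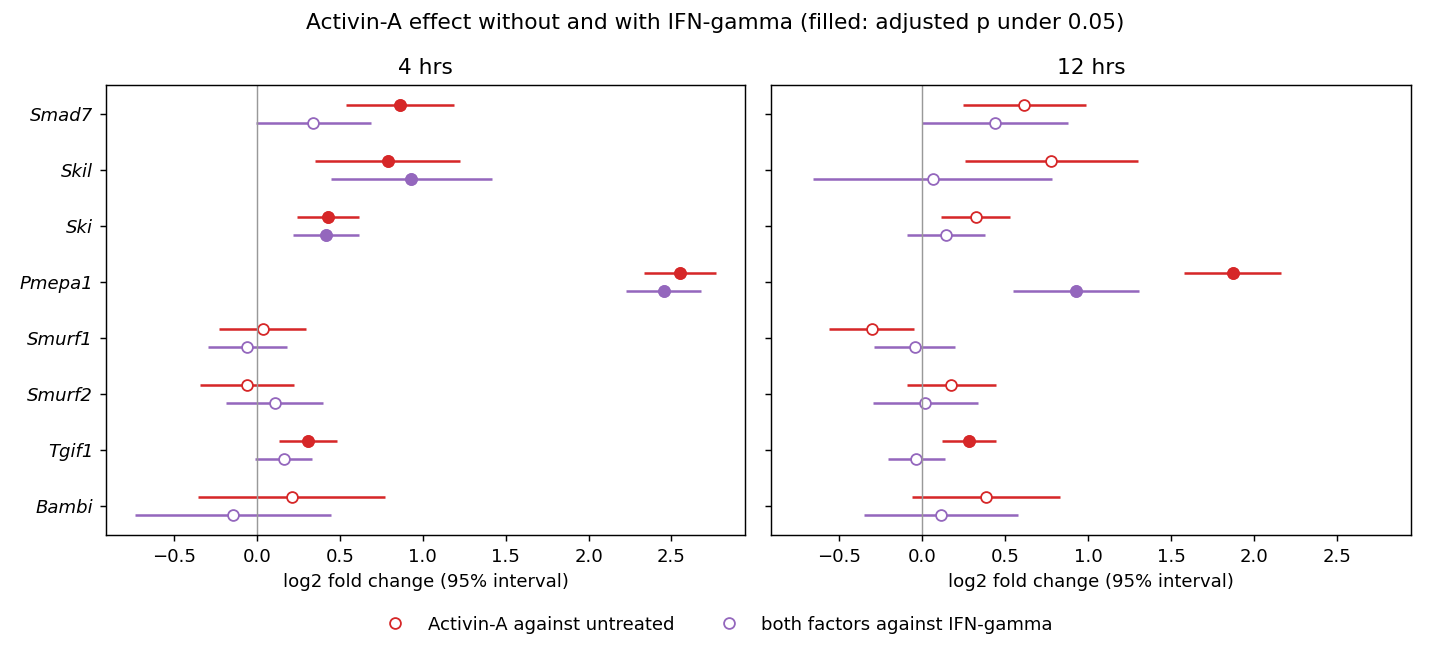
Log2 fold change of each member with Activin-A, against untreated cells (red) and against IFN-γ alone (purple), at 4 hrs (left) and 12 hrs (right). Lines are 95% intervals of the fit, not adjusted for the number of genes, and filled points have an adjusted p under 0.05. Pmepa1 is at 2.55 and 2.45 at 4 hrs and at 1.87 and 0.93 at 12 hrs.

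At 12 hrs in the presence of IFN-γ, Pmepa1 was the 1 member of 8 that rose with Activin-A, where 0.457% of genes were called higher. The median log2FC of the members was 0.09. It was at 31.5, 29.3, 29.2 and 34.1 CPM with IFN-γ and at 59.9, 53.0, 77.4 and 46.6 CPM with both factors. The groups did not overlap, and the log2FC was 0.93 ± 0.19 (SE), a 1.90-fold rise, with an adjusted p of 0.00114. In the refits without 1 well the adjusted p stayed below the threshold, with a highest value of 0.0495. Skil was at 9.59 ± 2.39 CPM with IFN-γ and at 9.90 ± 2.96 CPM with both factors. Its log2FC of 0.06 had a wide interval from -0.66 to 0.78, since no well of either group had more than 12 counts.

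The other members were not called at 12 hrs with IFN-γ present. Smad7 went from 20.3 ± 4.17 to 27.2 ± 3.15 CPM, a log2FC of 0.44 ± 0.22 (SE) with an adjusted p of 0.481. Ski went from 98.2 ± 12.7 to 109 ± 17.4 CPM, a log2FC of 0.14 ± 0.12 (SE). Smurf1, Smurf2, Tgif1 and Bambi had log2FC of -0.05, 0.02, -0.03 and 0.12.

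Whether IFN-γ changed the response to Activin-A was tested with the interaction of the 2 factors. No member was called at 4 hrs, where 0% of the 9137 genes were called at the threshold and 505 genes, Smad7 among them, had an unadjusted p under 0.05. DESeq2's Wald test called no gene either. The interaction of Smad7 at 4 hrs was -0.52 ± 0.24 (SE, log2) with an adjusted p of 0.865, so that the call of Smad7 without IFN-γ and its absence with IFN-γ were not shown to differ. No member was called at 12 hrs by edgeR, where 0.0111% of genes were, or by DESeq2. An unadjusted p under 0.05 was found for 2 members, Pmepa1 and Tgif1, and for 612 of the 8971 genes. The interaction of Pmepa1 was -0.94 ± 0.25 (SE, log2), an adjusted p of 0.180, and that of Tgif1 was -0.32 ± 0.12 (SE, log2), an adjusted p of 0.494. Skil, with an unadjusted p above 0.05, was at -0.72 ± 0.45 (SE, log2). For Pmepa1 the adjusted p was 0.0456 when genes of low count were not filtered out, and it stayed above the threshold in all 16 refits without 1 well.

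The level reached with both factors was also compared directly with that of Activin-A alone, which gives the effect of IFN-γ in cells that receive Activin-A. At 4 hrs no member was called by edgeR or DESeq2, while 6.07% of genes were called by edgeR. An unadjusted p under 0.05 was found for 3 members of 8 and for 1411 of the 9137 genes. At 12 hrs Pmepa1, Skil, Ski and Smurf2 were lower with both factors, and Smurf1 was higher. These are 4 of 8 members where 3.44% of genes were called lower, and 1 where 6.18% were called higher. The median log2FC of the members was -0.46.

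Pmepa1 at 12 hrs was at 182, 103, 107 and 167 CPM with Activin-A and at 59.9, 53.0, 77.4 and 46.6 CPM with both factors. Every well with both factors was below every well with Activin-A alone, and the log2FC was -1.24 ± 0.14 (SE) with an adjusted p of 2.13e-12, which is 2.36-fold lower. Skil was at 25.7, 16.4, 21.7 and 33.5 CPM with Activin-A and at 12.4, 5.64, 11.1 and 10.5 CPM with both. These groups were also apart, with a log2FC of -1.26 ± 0.29 (SE) and an adjusted p of 0.000827. Both calls held in all 8 refits without 1 well.

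Ski at 12 hrs was at 141, 135, 135 and 193 CPM with Activin-A and at 83.6, 121, 111 and 120 CPM with both factors. The log2FC was -0.46 ± 0.11 (SE) with an adjusted p of 0.00146. Replicate 4 of Activin-A was the high well, and without it the log2FC was -0.33 and the adjusted p 0.0508. Smad7 was lower in every well with both factors, with a log2FC of -0.51 ± 0.19 (SE) and an adjusted p of 0.0811. Tgif1 had a log2FC of -0.18 ± 0.08 (SE) and Bambi one of -0.12 ± 0.22 (SE), and neither was called.

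The pair of ligases went opposite ways in this comparison at 12 hrs. Smurf2 wells were at 66.7, 64.8, 68.3 and 63.2 CPM with Activin-A and at 44.0, 49.6, 46.5 and 50.1 CPM with both factors, without overlap. Its log2FC was -0.47 ± 0.15 (SE) with an adjusted p of 0.0255. This call was lost without Activin-A replicate 1 or 3 or replicate 1 or 3 of both factors, with adjusted p between 0.0601 and 0.0823, and with DESeq2's Wald test (0.0954). Smurf1 wells were at 61.0, 66.7, 70.3 and 79.3 CPM against 90.4, 76.6, 106 and 96.7 CPM, with 1 well of each group inside the range of the other. Its log2FC was 0.43 ± 0.13 (SE) with an adjusted p of 0.0175, and the call was lost without Activin-A replicate 1 or replicate 3 or 4 of both factors, with adjusted p of 0.0977, 0.113 and 0.0550, and with DESeq2's Wald test (0.0810).

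**Figure D3:**
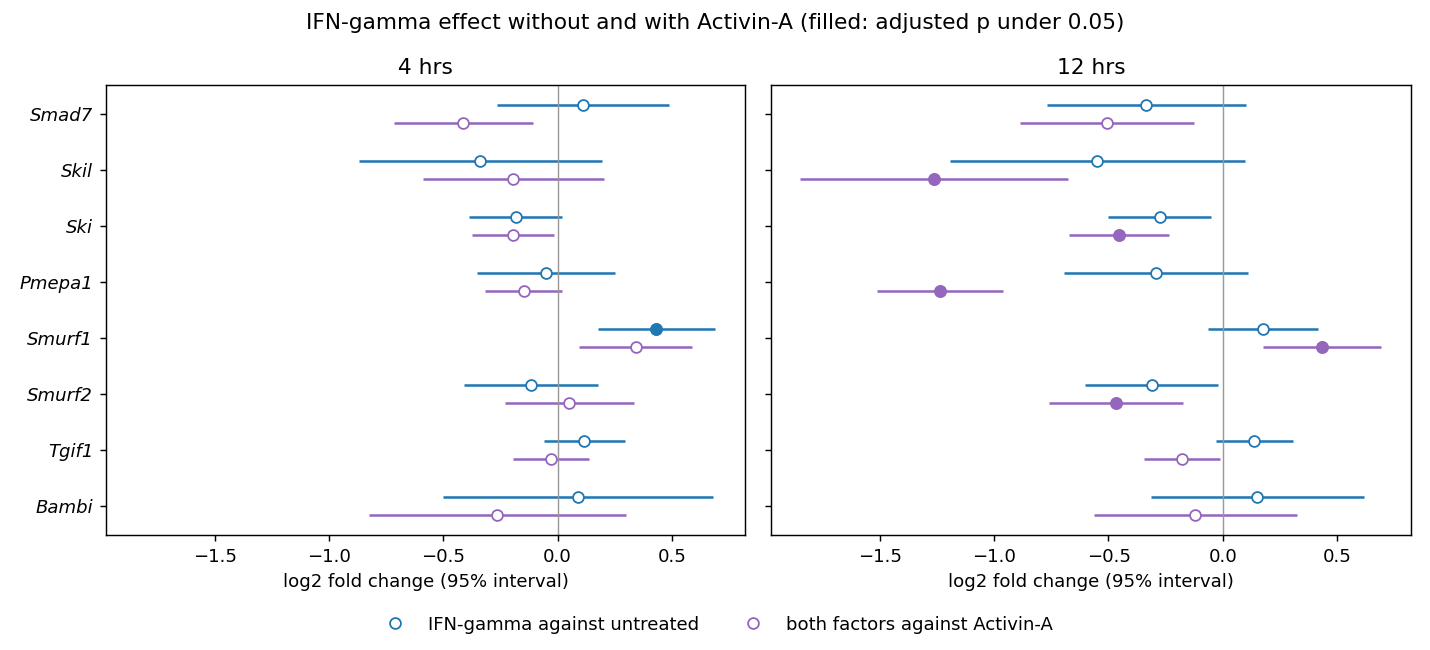
Log2 fold change of each member with IFN-γ, against untreated cells (blue) and against Activin-A alone (purple), at 4 hrs (left) and 12 hrs (right). Lines are 95% intervals of the fit, not adjusted for the number of genes, and filled points have an adjusted p under 0.05. At 12 hrs Pmepa1 and Skil are at -1.24 and -1.26 against Activin-A alone.

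With IFN-γ alone at 4 hrs Smurf1 rose, the 1 member of 8 called, where 4.29% of genes were called higher. It was at 60.7, 56.8, 86.7 and 68.9 CPM in untreated wells and at 80.8, 95.03, 97.0 and 90.0 CPM with IFN-γ. Its log2FC was 0.43 ± 0.13 (SE) with an adjusted p of 0.0261, and 1 untreated well lay within the range of the treated wells. The call was lost without untreated replicate 1, 2 or 4 or IFN-γ replicate 2, 3 or 4, with adjusted p between 0.0529 and 0.162, and with DESeq2's Wald test (0.110). At 12 hrs no member was called by edgeR or by DESeq2, where 9.25% of genes were called by edgeR. An unadjusted p under 0.05 was found for 2 members, Ski and Smurf2, and for 1672 of the 8971 genes. The median log2FC of the members at 12 hrs was -0.28, and 5 of the 8 had negative values. Smurf1, Tgif1 and Bambi had positive values, of 0.18, 0.14 and 0.15. Ski had a log2FC of -0.28 with an interval from -0.50 to -0.05, and Smurf2 one of -0.31 with an interval from -0.60 to -0.02. Pmepa1, Skil and Smad7 had log2FC of -0.29, -0.55 and -0.33, with intervals that reached from -0.70 to 0.11, from -1.19 to 0.10 and from -0.77 to 0.10.

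The 2 times were compared through the difference of the Activin-A effect, 12 hrs minus 4 hrs. Without IFN-γ no member was called by edgeR, where 0.0214% of the 9332 genes tested were, or by DESeq2. Pmepa1 was the 1 member with an unadjusted p under 0.05, a level that 569 of the 9332 genes reached. The difference for Pmepa1 was -0.67 ± 0.21 (SE, log2) with an adjusted p of 0.705. Under IFN-γ the effect of Activin-A on Pmepa1 was smaller at 12 hrs by -1.53 ± 0.25 (SE, log2), with an adjusted p of 6.9e-05. It was the 1 member called, where 0.0536% of genes were called lower, and the call held in all 16 refits without 1 well. Skil had a difference of -0.87 ± 0.44 (SE, log2) and an adjusted p of 0.741. In untreated cells no member was called between the times by edgeR, where 4.90% of genes were, or by DESeq2. An unadjusted p under 0.05 was found for 2 members and for 1637 of the 9332 genes. Of the members Pmepa1 came closest to a call, at 56.0 ± 8.53 CPM at 4 hrs and 38.6 ± 7.94 CPM at 12 hrs, with wells that did not overlap. Its log2FC was -0.55 ± 0.18 (SE) with an adjusted p of 0.0584. Without untreated replicate 3 of 12 hrs this adjusted p was 0.0383.

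Over the 8 groups, Pmepa1 and Smad7 were highest with Activin-A at 4 hrs and lowest with IFN-γ at 12 hrs, and so were Skil and Ski. For Skil the lowest neighbours, IFN-γ and both factors at 12 hrs, differed by less than their spread. Smurf1 had a different order, with the 4 groups that received IFN-γ above the other 4 groups, although the untreated wells at 12 hrs spread over the range of the IFN-γ wells at 4 hrs. Bambi was higher in each of the 4 groups at 12 hrs than in any group at 4 hrs, with means between 21.6 and 27.2 CPM against means between 14.5 and 17.1 CPM at 4 hrs. In untreated cells that difference had a log2FC of 0.49 ± 0.27 (SE) and an adjusted p of 0.340.

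Group means of log2 CPM were correlated over the 8 groups as a description of likeness, among the 9332 genes that passed the filter. Skil and Ski were close to each other, with r = 0.977, and by this measure each was among the 3 genes most like the other. Skil was also close to Glp1r (r = 0.977) and Tenm3 (r = 0.974), and Ski to Bpgm (r = 0.982) and Phldb2 (r = 0.978). The genes most like Pmepa1 were Ext1 (r = 0.977) and Chsy1 (r = 0.973). Those most like Smad7 were Bag1 (r = 0.974), Luzp1 (r = 0.973) and Denr (r = 0.970), and those most like Tgif1 were Sphk1, Arhgef5 and Dars, with r between 0.944 and 0.948. Over the 32 samples r was lower for every pair named. For the genes most like Tgif1 it was only 0.276, 0.403 and 0.345. For the other pairs it lay between 0.728 (Bag1 with Smad7) and 0.848 (Chsy1 with Pmepa1). Between Skil and Ski it was 0.794, where Ski ranked 14 for Skil and Skil ranked 15 for Ski. The points share libraries and the same 8 treatments.

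Other genes of the pathway were set beside the members. Of 27 other negative regulators, 25 were in the table and 22 were tested at 4 hrs. The others in the table did not pass the filter for low counts, so that a rise among them was not tested. With Activin-A alone, none of the tested genes was called higher and 1 was called lower at 4 hrs, and the same counts were found at 12 hrs among 21 tested. At an unadjusted p under 0.05, 1 was higher at 4 hrs and 0 were at 12 hrs. Over all genes 54 of 9137 were called lower at 4 hrs and 104 of 8971 at 12 hrs. In either direction 1028 and 1017 genes had an unadjusted p under 0.05. The gene of this list called lower was Fst at both times, which encodes follistatin, a secreted protein that binds activins and keeps them from the receptor. Fst fell from 676 ± 51.4 to 453 ± 49.4 CPM at 4 hrs, a log2FC of -0.58 ± 0.07 (SE) with an adjusted p of 3.39e-08. At 12 hrs it fell by 0.25 ± 0.06 (SE) on the log2 scale, with an adjusted p of 0.00501. With IFN-γ alone Fst rose to 1698 ± 80.7 CPM at 4 hrs and 1630 ± 53.4 CPM at 12 hrs, log2FC of 1.34 ± 0.07 and 1.41 ± 0.05 (SE). With both factors against IFN-γ no gene of this list was called by edgeR at either time. At each time 1 had an unadjusted p under 0.05, as had 850 of 9137 genes at 4 hrs and 921 of 8971 at 12 hrs. The interaction for Fst was 0.42 ± 0.09 (SE, log2) at 4 hrs with an adjusted p of 0.278.

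Among 27 Smad2/3 target genes, 22 were tested at each time. With Activin-A alone 7 were called higher and 2 lower at 4 hrs, and 11 were called higher and 2 lower at 12 hrs. Over all genes 96 were called higher and 54 lower of 9137 at 4 hrs, and 112 and 104 of 8971 at 12 hrs. With both factors against IFN-γ, 7 were higher and 1 lower at 4 hrs, and 6 were higher and 1 lower at 12 hrs. Over all genes 51 were called higher and 23 lower at 4 hrs, and 41 and 51 at 12 hrs. The medians of the log2FC over the list were 0.33 and 0.47 without IFN-γ and 0.24 and 0.17 with it. With both factors against Activin-A at 12 hrs, 7 were lower and none was higher, and at an unadjusted p under 0.05 there were 13 lower and 2 higher. Over all 8971 genes 309 were called lower and 554 higher, and 1776 had an unadjusted p under 0.05 in either direction. Ccn2, a matricellular protein, rose with Activin-A by 1.77 ± 0.11 (SE, log2) at 4 hrs and 1.88 ± 0.08 at 12 hrs, and with IFN-γ present by 1.43 ± 0.12 and 1.496 ± 0.08.

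Of 20 ligands, receptors and Smads, 14 were tested at 4 hrs and 13 at 12 hrs. Inhba, which encodes the subunit of Activin-A itself, rose with Activin-A alone from 90.8 ± 11.2 to 128 ± 10.9 CPM at 4 hrs, a log2FC of 0.51 ± 0.11 (SE) with an adjusted p of 0.00256. It rose at 12 hrs by 0.56 ± 0.13 (SE, log2), and with both factors against IFN-γ at 12 hrs by 0.49 ± 0.13 (SE, log2) with an adjusted p of 0.0392. With both factors against IFN-γ at 4 hrs Inhba was not called by edgeR, with a log2FC of 0.39 ± 0.11 (SE) and an adjusted p of 0.0712. Tgfbr3, the coreceptor betaglycan, fell by 0.99 ± 0.29 (SE) on the log2 scale with Activin-A at 12 hrs, with an adjusted p of 0.0380. Its wells held 17 to 23 counts without treatment and 8 to 14 with Activin-A. Refits without 1 well are given for the members only, and not for Inhba or Tgfbr3. None of 10 positive regulators that act by removing inhibitors, such as the ligase Rnf111, was called by edgeR in any of the 4 Activin-A comparisons. In each, 1 to 3 of them had an unadjusted p under 0.05, as had between 850 and 1028 of all genes tested. Of 12 genes listed as BMP-type targets, 7 were tested, and their median log2FC with Activin-A alone at 4 hrs was -0.17. Hes1 was the 1 gene of this list called at that time, where 150 of all 9137 genes were called in either direction. It rose by 0.51 ± 0.13 (SE, log2) with an adjusted p of 0.0198. Hes1 was also called with Activin-A alone at 12 hrs, at 0.66 ± 0.14 (SE, log2). With both factors against IFN-γ it was called at 4 hrs, at 0.79 ± 0.16 (SE, log2), and not at 12 hrs. Id3, an inhibitor of helix-loop-helix factors, fell with Activin-A at 12 hrs by 0.33 ± 0.08 (SE) on the log2 scale with an adjusted p of 0.00581.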

How the data were processed

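Total RNA of YUMM3.3 cells in 6-well plates was sequenced by the authors as a BRB-seq library, read in pairs on an Illumina NovaSeq instrument. The authors deposited raw counts per gene for all 32 samples, without normalization. The submitters' processing notes name STAR 2.7.10b, featureCounts, DESeq2 1.36.0 and the builds GRCm39 and mm39. The annotation and any collapse of molecular identifiers are not given in the sources used here, so that duplicate reads may be among the counts. Symbols were joined by Ensembl identifier from GENCODE M21 for 12437 of 12451 genes, and its GRCm38 positions were not used.

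Counts were analysed with R 4.3.3 and edgeR 4.0.16. Genes passing filterByExpr were scaled by TMM and tested by quasi-likelihood F tests (glmQLFit, glmQLFTest). The 16 samples of a time entered each fit, or all 32 where times were compared, with Benjamini-Hochberg adjustment over all genes tested and a threshold of 0.05. Fits were also run on simulated counts with a fixed spread, in which only genes of higher mean count were changed. That run does not cover genes of low count, and its outcome is not used here. Log2 CPM for correlations used a prior count of 2. Totals per sample had a median of 988020 counts. Groups follow the labels' treatment and time. Pairs of wells of 1 group differed by more than sampling noise, with a chi-square per gene between 1.16 and 2.89, and the 3 pairs with Activin-A replicate 1 of 4 hrs were at 2.45 or above while no other pair exceeded 1.54.

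The members and gene lists were chosen with earlier results of these data known, so that counts over them are descriptions. All members are named. Of a list, at most the 4 genes with the lowest p in an Activin-A comparison are named, besides the listing by likeness, which takes the 3 genes of highest r. Some genes that these rules name are not reported here. The values of Fst with IFN-γ alone and the interaction of Fst were added after its values were seen. Alternatives were DESeq2 1.42.0 (Wald test), RLE scaling, no filter, a minimum of 10 counts per sample, the replicate block, fits of all 32 samples or of the 8 compared, leaving out each sample, and for likeness a prior count of 0.5, Spearman's rho and r over 32 samples. Plots used Python 3.11.15 with matplotlib 3.10.9.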

Additional observations from a re-analysis of the deposited data

Results flagged for a closer look

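In the group with Activin-A at 12 hrs, replicate 4 had a Ski level of 193 CPM, set apart from the other 3 wells by most of the range of the group. It was the only such well among the 64 combinations of member and group that were examined, and chance sets apart about 1 in 20. Without this well the comparison of both factors with Activin-A at 12 hrs no longer passed the threshold for Ski, with a log2FC of -0.33 and an adjusted p of 0.0508.

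The effect of Activin-A on Pmepa1 under IFN-γ differed between the times, by -1.53 on the log2 scale for 12 hrs minus 4 hrs, with an adjusted p of 6.9e-05 by edgeR's quasi-likelihood test. All 4 wells with both factors were above all wells with IFN-γ at each time.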

How the results depend on the processing

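Calls of Pmepa1 for Activin-A in all 4 comparisons and of Smad7 and Ski for Activin-A alone at 4 hrs held under every alternative that was run. The count of members called moved by more than 1.5 times in these cases. With DESeq2's Wald test, 3 members were called for Activin-A at 4 hrs, 1 for both factors against IFN-γ at 4 hrs, 0 for IFN-γ at 4 hrs, 1 for Activin-A at 12 hrs and 3 for both factors against Activin-A at 12 hrs. With only the 8 samples compared, 3 were called for Activin-A at 4 hrs, where Skil (adjusted p = 0.0732) and Tgif1 (0.0986) were lost, and 1, Pmepa1, between the times in untreated cells. Without a filter, 1, again Pmepa1, was called for the interaction at 12 hrs and 1 between the times.

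Refits without 1 sample called 3 to 4 members for Activin-A at 4 hrs, 1 to 3 for both factors against IFN-γ at 4 hrs, 0 to 1 for IFN-γ at 4 hrs, 1 to 3 for Activin-A at 12 hrs, 3 to 5 for both factors against Activin-A at 12 hrs and 0 to 1 between the times. Over all genes the ranges in the same order were 110 to 163, 47 to 72 and 412 to 439 at 4 hrs. They were 170 to 201 and 728 to 777 at 12 hrs, and 302 to 374 between the times. Values that changed sign in such refits were all of genes not called. For Activin-A at 4 hrs they ranged from -0.037 to 0.16 for Smurf1, -0.13 to 0.029 for Smurf2 and -0.074 to 0.49 for Bambi. For both factors against IFN-γ they ranged from -0.34 to 0.043 for Bambi at 4 hrs, and at 12 hrs from -0.11 to 0.14 for Smurf2, -0.021 to 0.29 for Bambi, -0.063 to 0.25 for Skil, -0.070 to 0.0060 for Tgif1 and -0.12 to 0.035 for Smurf1. For both factors against Activin-A at 12 hrs Bambi ranged from -0.26 to 0.014. The cause was not tested.

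Over all genes, DESeq2 called 92 instead of 150 for Activin-A at 4 hrs, 46 instead of 74 for both factors against IFN-γ at 4 hrs (120 with only the 8 samples), 140 instead of 216 and 59 instead of 92 at 12 hrs, 569 instead of 863 for both factors against Activin-A at 12 hrs and 295 instead of 457 between the times. Smad7 for Activin-A at 12 hrs was called with at least 10 counts in every sample (adjusted p = 0.0411) and with all 32 samples in 1 fit (0.0392), where Tgif1 was lost (0.0749).

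Of 48 same-numbered pairs of samples none had deviations that correlated above 0.1, with a mean r of -0.00023. The labels do not say what the number stands for, and these values cannot show whether same-numbered wells were handled together. With the replicate block, Tgif1 for Activin-A at 4 hrs had an adjusted p of 0.0629, and no other call of a member changed.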
